A study of Mus musculus with 2 samples.

Results

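The miR-192, miR-194 and miR-215 miRNAs come from 2 small gene clusters, and 7 of the 1900 mouse miRNA probes on the arrays measured them (mmu-miR-192, mmu-miR-194 and mmu-miR-215 in the names on the arrays). These were all probes named for one of the 3 miRNAs, with either arm, where an arm is the product cut from the 5p or the 3p side of the hairpin. The 7 probes were 3 for 5p arms (miR-192-5p, miR-194-5p and miR-215-5p) and 4 for 3p arms (miR-192-3p, miR-194-2-3p, miR-194-1-3p and miR-215-3p). The samples were mononuclear cells isolated from the lamina propria of the colon, the connective tissue layer under the gut epithelium, and total RNA was measured. One array held RNA from specific pathogen-free (SPF) male Balb/c mice, which carry a gut microbiota, and one held RNA from germ-free male Balb/c mice, which carry none. The number and age of the animals behind each sample, and whether they were pooled, were not stated. With 1 array per group there is no replicate error between animals, no test was run, and every difference below describes these 2 arrays.

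miR-192 and miR-194 are abundant in the absorptive epithelium of the gut, in liver and in kidney, and miR-215 is a close relative of miR-192 encoded beside a second copy of miR-194. In human cells all 3 are induced by p53 and restrain the cell cycle. A miRNA finds its targets mainly through its seed, bases 2 to 8 from its 5′ end, so miRNAs with the same seed share many targets, while the second arm of a hairpin has a different seed and is usually degraded.

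The mature sequences show which probes can be told apart by sequence and which miRNAs share a seed. They are given 5′ to 3′ from RefSeq (GRCm38.p6), which held all 7, with the seed in capitals, first the pair that shares the seed UGACCUA.
miR-192-5p: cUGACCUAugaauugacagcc
miR-215-5p: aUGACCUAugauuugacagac
miR-194-5p: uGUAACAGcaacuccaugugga
miR-192-3p: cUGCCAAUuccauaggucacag
miR-194-2-3p: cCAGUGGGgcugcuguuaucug
miR-194-1-3p: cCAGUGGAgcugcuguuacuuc
miR-215-3p: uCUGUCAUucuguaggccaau
miR-192-5p and miR-215-5p are identical at 18 of 21 positions and differ, counted from the 5′ end with the base of miR-192-5p first, by C1A, A12U and C20A. No difference falls in the seed, and cross-hybridisation between such close sequences was not tested. Among the probes with a RefSeq sequence (1618 of 1900), no other carried the seed of any of the 3 5p arms.

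The genes lie on chromosomes 19 and 1 (GENCODE M21, GRCm38, plus strand for all 4). Mir194-2 (chr19:6264643-6264728) is followed after 115 bases by Mir192 (chr19:6264844-6264932). This pair overlaps no annotated gene, and Mir194-2 begins 2307 bases past the end of the autophagy gene Atg2a. Mir194-1 (chr1:185313319-185313385) is followed after 195 bases by Mir215 (chr1:185313581-185313692). Mir194-1 lies in an intron and Mir215 in exon 2 of the noncoding gene 2010103J01Rik, and both lie in an intron of Iars2, which runs on the opposite strand and encodes the mitochondrial isoleucyl-tRNA synthetase. Both Mir194 hairpins are shown because they yield the same 5p arm and different 3p arms. By sequence, only a 3p arm can be assigned to a cluster. The arms are in capitals.
Mir194-2: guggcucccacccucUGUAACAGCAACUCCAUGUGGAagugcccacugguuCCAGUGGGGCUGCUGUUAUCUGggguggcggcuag
Mir194-1: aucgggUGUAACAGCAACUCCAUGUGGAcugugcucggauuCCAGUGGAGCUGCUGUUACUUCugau
The 3p arms are identical at 18 of 22 positions. With miR-194-1-3p first and positions counted from its 5′ end, they differ by A8G, C19U, U20C and C22G. Of these, A8G alters the last base of the seed. Cross-hybridisation between these 3p arms was not tested either.

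The values are net intensities, the deposited median spot intensity less the mean of the array's blank spots. That mean was 158.3 on the SPF array (SD 5.33, 895 spots) and 128.5 on the germ-free array (SD 4.53, 896 spots). SPF net values were multiplied by 0.849, which equalised the median of the 1471 miRNA probes above the floor on both arrays. The floor was the blank mean + 2 SD, a net intensity of 10.7 on the SPF array before scaling and 9.05 on the germ-free array. It is permissive. Spots that the files name No Probe exceeded it in 71.8% of cases on the SPF array and 66.7% on the germ-free array. The error printed with each log2 SPF over germ-free is the technical SD expected from repeated control spots and blank spots within an array, and it leaves out any spread between arrays or animals. Probes bind their targets unequally, so an intensity compares 1 probe across the arrays but not the amounts of different miRNAs.

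All 7 probes lay above the floor on both arrays and had higher scaled net intensity on the SPF array than on the germ-free array. The share of all 1471 probes with a log2 value above 0 was 42.4%. At least 2-fold higher were 4 of the 7, namely the 3 5p arms and miR-192-3p, beside 1.56% of all shared probes. The median log2 value was 1.16 over the 7 probes and -0.06 over all shared probes. The 5p arms ranged from 1.16 to 1.62, while 3 of the 4 3p arms lay between 0.27 and 0.36. Among all shared probes named 5p, 1.32% were at least 2-fold higher, and among those named 3p, 2.3%. These miRNAs were chosen with earlier results of these arrays known, so their height above the background is a description.

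miR-192-5p, the main product of its hairpin and a known repressor of the transcription factor Zeb2 in kidney cells, had a spot intensity of 3415 on the SPF array and 1027 on the germ-free array. The scaled net intensities were 2765 and 898.5 for SPF and germ-free. Log2 SPF over germ-free was 1.62 ± 0.13 (technical SD), or 3.08-fold. The probe ranked 89 by intensity on the SPF array and 202 on the germ-free array, and its log2 value was 4 from the top of the shared probes. The SPF value thus lay above the germ-free value by many times the spot-to-spot spread.

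miR-194-5p, which both clusters encode, had a spot intensity of 3413 on the SPF array and 1203 on the germ-free array. Its scaled net intensity was 2764 on the SPF array and 1074 on the germ-free array, a log2 value of 1.36 ± 0.13 (technical SD) or 2.57-fold, ranking 9 from the top. The log2 values of miR-192-5p and miR-194-5p differed by 0.26 with a technical error of 0.18, so these bright 5p arms were not separable by their spot error. The log2 values of shared probes next to miR-194-5p on the array ran from -1.17 to 0.49 (4 probes), and those next to miR-192-5p from -0.04 to 1.86 (3 probes).

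miR-215-5p, which shares its seed with miR-192-5p, was dimmer. Its spot intensity was 354.9 on the SPF array and 203.3 on the germ-free array, with scaled net values of 166.9 and 74.8 for SPF and germ-free. The log2 value was 1.16 ± 0.16 (technical SD), or 2.23-fold, ranking 15 from the top. It lay 0.46 below that of miR-192-5p, with a technical error of 0.21 for the difference. That error grows to 0.30 when the spread of the No Probe spots is used in place of the blank spots. Without any background subtraction the log2 value of miR-215-5p was 0.53, under 2-fold.

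**Figure D1:**
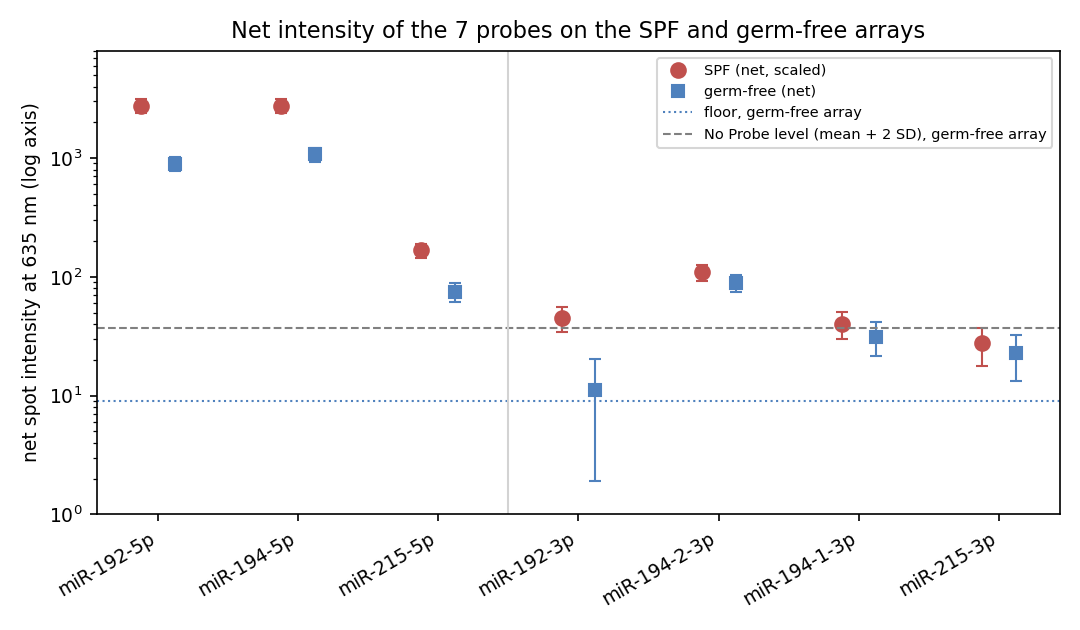
Net intensity (log axis) of each of the 7 probes, SPF (circles, scaled) left of germ-free (squares), with bars of ± 2 technical SD from repeated control spots and blank spots. The 5p arms of miR-192 and miR-194 sit far above the No Probe level, and the bars of the 2 arrays are apart for the 3 5p arms and miR-192-3p but overlap for miR-194-2-3p, miR-194-1-3p and miR-215-3p.

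The 3p arms were dim. miR-192-3p had a spot intensity of 211.0 on the SPF array and 139.6 on the germ-free array, or scaled net values of 44.8 and 11.1 for SPF and germ-free. Its log2 value of 2.01 was the highest of the 1471 shared probes, but its technical SD was 0.62, since the germ-free value lay just above the floor of 9.05. On the germ-free array it was also under the No Probe level (mean + 2 SD of those spots, an intensity of 165.8), while on the SPF array it was above that level (202.2). With the spread of the No Probe spots, the technical SD was 1.5, and ± 2 such SD reached from -0.98 to 5.01. By this measure neither its size nor its direction is resolved. Its germ-free intensity was also under the mean of the No Probe spots (143.5), so it had no value with that mean as background. The log2 value was 1.52 with the blank mean of its own block and 0.32 without background subtraction, so the rank at the top depends on how a near-blank germ-free spot is corrected.

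miR-194-2-3p, the arm of the chromosome 19 cluster, was the brightest 3p arm and above the No Probe level on both arrays. Its intensity was 287.2 on the SPF array and 217.2 on the germ-free array, and its scaled net value 109.5 on SPF and 88.7 on germ-free. The log2 value was 0.30 ± 0.16 (technical SD). miR-194-1-3p, the arm of the chromosome 1 cluster, had 205.7 on the SPF array and 159.9 on the germ-free array, scaled net values of 40.2 and 31.3 for SPF and germ-free, and a log2 value of 0.36 ± 0.29 (technical SD). These arms, of different loci by sequence, thus differed by less than their technical error (a log2 difference of -0.06 with an error of 0.33). Neither moved by 2 technical SD.

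miR-215-3p was the dimmest on the SPF array, with an intensity of 190.8 there and 151.5 on the germ-free array, both under the No Probe level. Its scaled net value was 27.6 on the SPF array and 22.9 on the germ-free array, and its log2 value 0.27 ± 0.39 (technical SD). At this intensity a change of that size was not detectable. Dim control probes, with higher germ-free net intensity than miR-215-3p (5 probes, means from 27.2 to 65.7), had log2 values from -0.80 to 0.18. Each of these was a ratio of means over 8 spots, whereas a miRNA probe has 1 spot.

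The arms of miR-194 differed in their log2 values. miR-194-5p exceeded miR-194-2-3p by 1.06 with a technical error of 0.21, or 0.30 with the spread of the No Probe spots. Over miR-194-1-3p its log2 excess was 1.0, with errors of 0.32 and 0.67 by these measures. For miR-215 the 5p arm exceeded the 3p arm by 0.89 with errors of 0.42 and 0.95. For miR-192 the 5p arm was lower by 0.39 with errors of 0.63 and 1.5. No Probe spots averaged 176.2 on the SPF array and 143.5 on the germ-free array, above the blank means. With those means as background, miR-194-5p was at 1.42, miR-194-2-3p at 0.40 and miR-194-1-3p at 0.65. By the same measure miR-215-5p was at 1.38 and miR-215-3p at 0.68. The gaps to miR-194-1-3p and miR-215-3p were then smaller. Across the 465 precursors with both arms above the floor on both arrays, the median absolute difference between arms was 0.25. A difference at least as large as that of miR-194-5p and miR-194-2-3p occurred in 3.23% of them. One at least as large as that of miR-194-5p and miR-194-1-3p occurred in 4.95%. The share was 6.24% for the difference of miR-215 and 31.4% for that of miR-192. Since 1.56% of all shared probes were at least 2-fold higher, a 5p arm at that height makes such a share small in itself. The shares for miR-194 and miR-215 thus largely restate their 5p values. All probes named 5p had a median log2 value of -0.07 (607 shared probes) and all named 3p one of -0.02 (609 shared probes), a gap far smaller than that between the arms of miR-194.

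**Figure D2:**
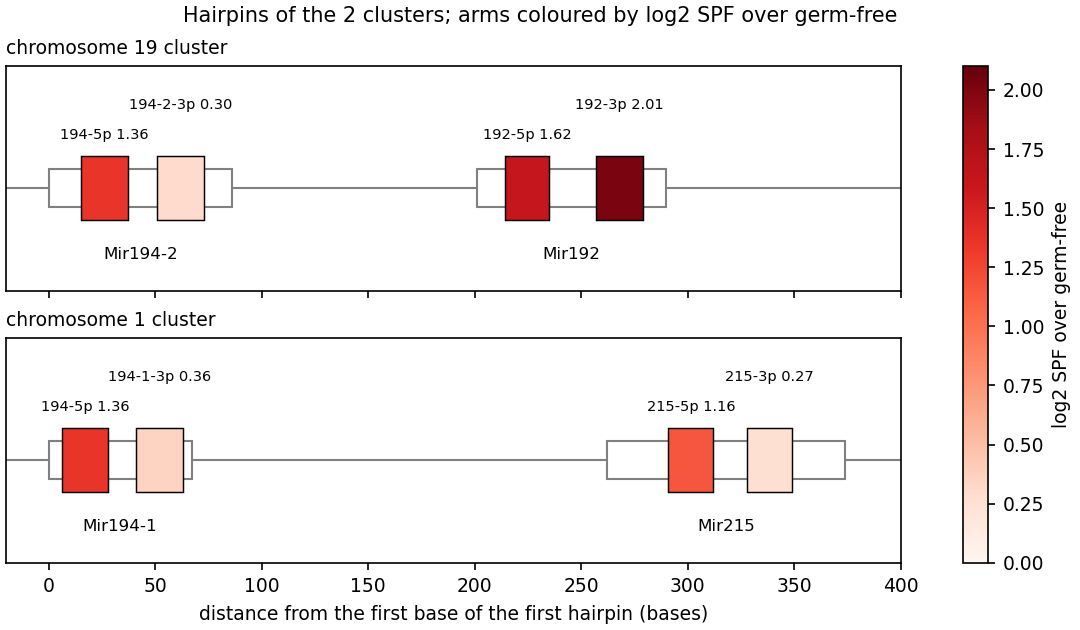
The hairpins of both clusters drawn to scale in bases from the first base of the first hairpin, with each arm coloured by its log2 SPF over germ-free. The 5p arms range from 1.16 to 1.62, and miR-194-2-3p, miR-194-1-3p and miR-215-3p lie between 0.27 and 0.36. The miR-194-5p probe cannot assign its signal to a cluster, so its value is drawn in both.

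By cluster, the 3 probes that belong to chromosome 19 alone had log2 values of 1.62 for miR-192-5p, 2.01 for miR-192-3p and 0.30 for miR-194-2-3p. The 3 that belong to chromosome 1 alone had 1.16 for miR-215-5p, 0.27 for miR-215-3p and 0.36 for miR-194-1-3p. Summed net intensity over the chromosome 19 probes was 2920 on the SPF array and 998.3 on the germ-free array, nearly all of it from miR-192-5p. Over the chromosome 1 probes it was 234.8 on the SPF array and 129.1 on the germ-free array. For the chromosome 1 cluster the higher SPF value rests on miR-215-5p alone, a dim probe whose sequence is close to that of the brighter-spotted miR-192-5p. In both clusters the miR-194 3p arm was within 2 technical SD of no change, and cross-hybridisation between these arms was not tested.

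The miR-200 family, epithelial miRNAs that repress Zeb1 and Zeb2, had the median nearest to that of these clusters among the lists compared here. Of its 10 probes, 9 were above the floor on both arrays, all 9 had log2 values above 0 and 5 were at least 2-fold higher, with a median of 1.09. With local background subtraction its median was 0.50, with no probe at least 2-fold higher. As with miR-194, the brighter arm had the larger value in its 4 precursors with both arms above the floor. miR-200b-3p was at 1.53 ± 0.13 and miR-200b-5p at 0.98 ± 0.28, while miR-200c-3p was at 1.12 ± 0.13 and miR-200c-5p at 0.12 ± 0.17 (technical SD). miR-203, miR-375 and miR-802, of epithelial and endocrine cells, went both ways. Of their 6 probes 4 were above the floor on both arrays, with a median of -0.12. miR-203-3p, of stratified and differentiating epithelium, was at 1.05. The arms of miR-375, of endocrine cells, were at -0.01 (3p) and -0.23 (5p), and miR-802-3p was at -0.62. The sign of this median turned with the processing, to 0.11 without scaling and 0.03 with a floor at the No Probe level. Without scaling it was still below the median of all shared probes, 0.18. With that floor miR-802-3p dropped out, which left 3 probes.

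**Figure D3:**
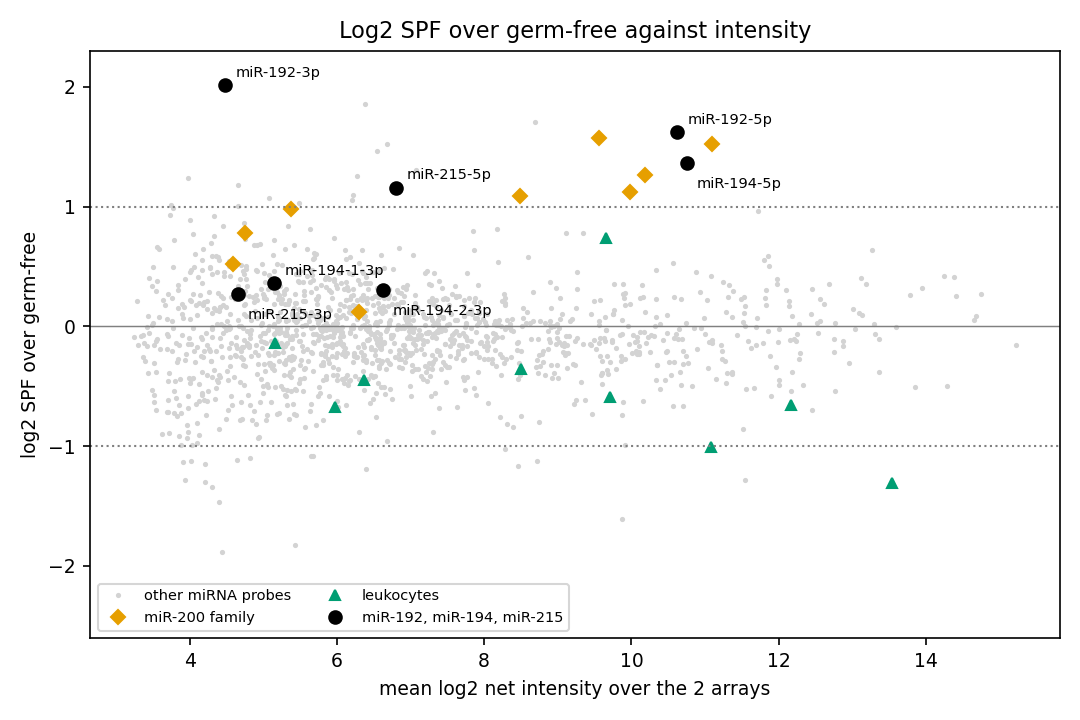
Log2 SPF over germ-free (y axis) against the mean log2 net intensity over the 2 arrays (x axis) for the 1471 shared miRNA probes, with the 7 probes in black, the miR-200 family as diamonds and leukocyte miRNAs as triangles. Dotted lines mark 2-fold. The bright 5p arms lie among the miR-200 family at the upper right, while miR-192-3p stands alone at the dim end, where the cloud is widest.

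Other probes were placed by their distance from the 5p arms in spot brightness (mean log2 net intensity over the 2 arrays) and log2 SPF over germ-free, which describes spots on 2 arrays and not amounts of RNA. The probe nearest to miR-194-5p was miR-200b-3p at a distance of 0.38, then miR-200a-3p at 0.58. The same pair was nearest to miR-192-5p, at 0.49 and 0.57. Nearest to the dimmer miR-215-5p were miR-182-5p at 0.31 (log2 value 1.31) and miR-196b-5p at 0.38 (log2 value 1.52). This ordering arm by arm was added after the values were seen. The mean of the 3 arms, at a brightness of 9.39 and a log2 value of 1.38, lies between the bright pair and miR-215-5p, where none of them lies. The 5 probes nearest to that point were miR-429-3p (log2 value 1.57), miR-3067-3p (0.78), miR-200c-3p (1.12), miR-5110 (0.78) and miR-223-3p (0.74), a miRNA of neutrophils and monocytes. The probes that share the seed CAGUGGG with miR-194-2-3p were miR-6926-5p, at a log2 value of -0.05 ± 0.14, and the dim miR-7055-5p, at 0.70 ± 0.51 (technical SD).

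Markers of the labelled cell type were present on both arrays. miR-150-5p had a spot intensity of 9052 on the SPF array and 18828 on the germ-free array, and miR-142a-5p had 4493 on SPF and 5927 on germ-free. Of 10 leukocyte probes (miR-142a, miR-150, miR-155, miR-223 and miR-342), 9 were above the floor and 8 above the No Probe level on both arrays. Summed net intensity of the 10 was 14979 on the SPF array and 29851 on the germ-free array. Of these sums miR-150-5p alone gave 7552 on SPF and 18699.5 on germ-free. Log2 values of the 9 probes were mostly below 0. miR-150-5p, of mature lymphocytes, was at -1.31, and miR-142a-3p, of all blood lineages, was at -1.01, both at least 2-fold lower beside 1.43% of all shared probes. Of the 9, 8 were lower on the SPF array, while miR-223-3p was higher, at 0.74 ± 0.13 (technical SD). The median was -0.59. With local background subtraction the median was 0.45 (7 probes), so its direction depended on the background. miR-223-5p was at or under the blank mean on the germ-free array and above the floor on the SPF array, so it had no log2 value.

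Markers of epithelium other than the 3 miRNAs had log2 values mostly above 0. This list held the miR-200 family again, with miR-203 and miR-375 added, and it left out miR-802 (3p arm at -0.62). Of its 14 probes 12 were above the floor on both arrays. Of these 12, 10 had log2 values above 0 and 6 were at least 2-fold higher, beside 1.56% of all shared probes. The miR-200 family gave 9 of the 12, 9 of the 10 and 5 of the 6, so these counts largely repeat those above. Summed net intensity of the 14 probes was 9449 on the SPF array and 3947 on the germ-free array. Of these sums the miR-200 family gave 9038 on SPF and 3557 on germ-free. With local background subtraction 6 of 11 had log2 values above 0 and none was at least 2-fold higher, and 3 of 12 were with scaling on the bright control probes or without background subtraction. The same sum over the 7 probes of miR-192, miR-194 and miR-215 was 5918 on the SPF array and 2202 on the germ-free array. miR-203-5p and miR-429-5p were at or under the blank mean on both arrays. Fewer cells of a type and less RNA per cell cannot be told apart in such isolates, and the part of epithelial cells in the values of the clusters was not tested. Other cells the isolate could hold gave lower medians than the epithelial list. Smooth muscle was at 0.16 (6 of 8 probes above the floor on both arrays). Stroma and endothelium were at -0.07 (5 of 6) and erythroid cells at -0.48 (5 of 5). All 5 erythroid probes were lower on the SPF array. With local background subtraction 2 of the 5 had log2 values above 0. The smooth muscle median was -0.11 with local background subtraction (5 probes). The stromal median was 0.16 without scaling, where the median of all shared probes was 0.18. As reported, none of these 16 probes was at least 2-fold higher.

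**Figure D4:**
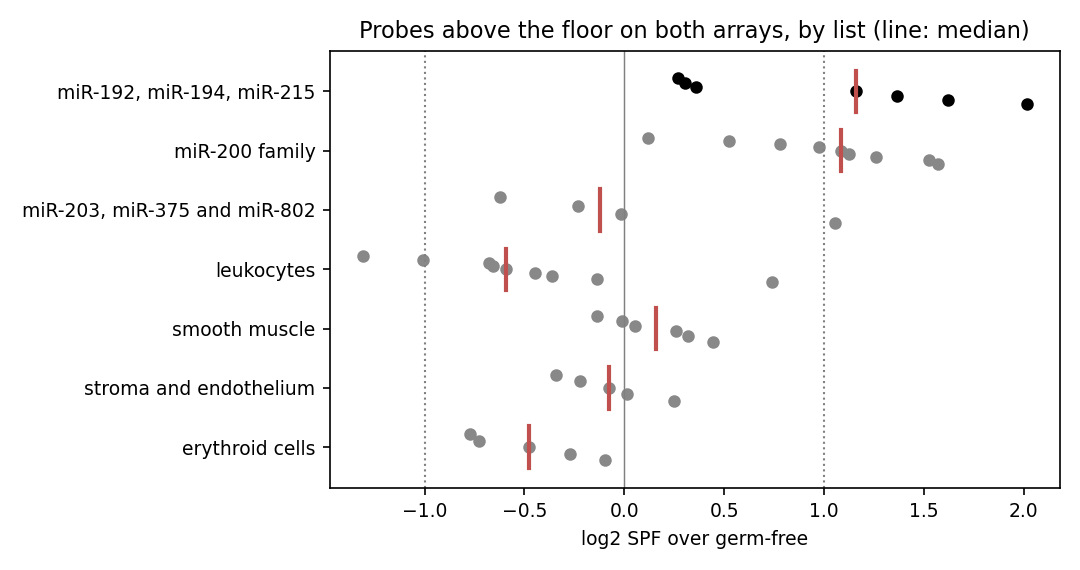
Log2 SPF over germ-free of each probe above the floor on both arrays, by list, with the list median as a line and dotted lines at 2-fold. miR-192, miR-194 and miR-215 (median 1.16) and the miR-200 family (1.09) lie to the right. The leukocyte (-0.59) and erythroid (-0.48) miRNAs lie to the left.

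The values depended mainly on how background was removed. miR-192-5p and miR-194-5p stayed at least 2-fold higher under each of the 14 alternatives that gave them a value, from 1.46 to 1.86 and from 1.23 to 1.60 on the log2 scale. The alternative that gave none was subtraction of each spot's own local background. Around miR-194-5p the local background was 122.4% of the spot intensity on the SPF array and 115.2% on the germ-free array. Around miR-192-5p it was 14.1% on the SPF array and 106.1% on the germ-free array. With this subtraction the log2 value was 0.69 for miR-215-5p, 0.68 for miR-194-2-3p, 0.53 for miR-215-3p, 0.15 for miR-192-3p and -0.08 for miR-194-1-3p, so that none of these 5 probes was at least 2-fold higher.

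**Figure D5:**
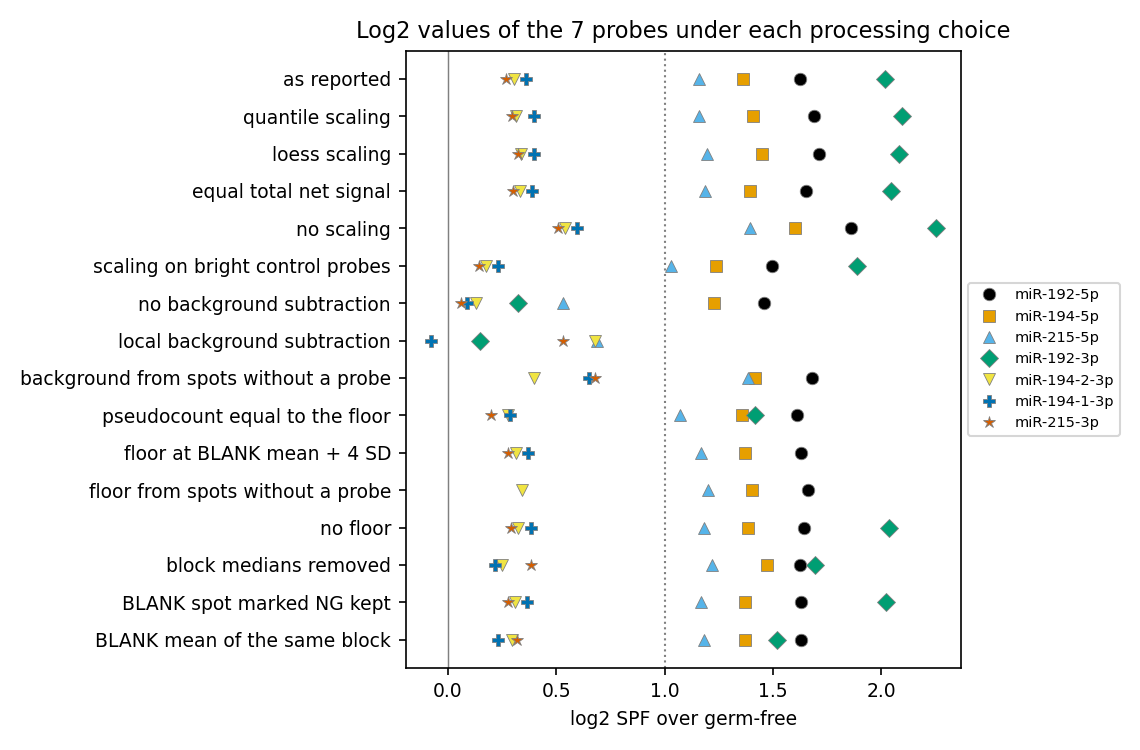
Log2 SPF over germ-free of the 7 probes (x axis) under each processing choice (rows), with the dotted line at 2-fold. The 5p arms and 3 of the 3p arms form separate groups under every scaling, while miR-192-3p ranges from 0.15 to 2.25 and the groups merge with local background subtraction.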

How the data were processed

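The authors deposited, per the file headers, the median intensity of each of 3200 spots (32 blocks) and of its local background, from scans at 3 gains. Per the labels, total RNA was labelled with Hy5. Platform, hybridisation and scanner: not given in the sources used here. Each miRNA probe has 1 spot. From these intensities, net values, the floor and the scaling were computed as stated in the text, leaving out 1 blank spot that the SPF file marks NG. The technical SD combined the log2 SD of 5 bright control probes with 8 spots each (0.0908 per spot) with the SD of the blank spots. The blank mean was the background set by the plan. The local background rose with the spot intensity (Spearman correlation 0.903 on the SPF array and 0.956 on the germ-free array). Between the arrays it did not follow the spot of miR-192-5p, where it was 483.0 on SPF and 1089 on germ-free. Only 2 arrays limit the precision. Every member probe was named. The nearest probes, marker lists and seed matches followed fixed rules, but the members and lists were chosen with earlier results of these data known. Alternatives were 5 scalings, 4 backgrounds, 3 floors, a pseudocount, block medians, arms, fold thresholds and the NG spot. Subtracting each block's own blank mean was added after the data were seen. Python 3.11.15 and statsmodels 0.14.6 (loess, span 0.4) were used, and the steps were tested on simulated arrays.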

Additional observations from a re-analysis of the deposited data

How the results depend on the processing

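The median log2 SPF over germ-free of the 7 probes (1.16) was 1.36 over the 5p arms and 0.33 over the 3p arms. It was 1.39 without scaling, where the median of all shared probes shifted to 0.18. Relative to that median it was 1.21, as in the reported values and with scaling on the bright control probes, where all shared probes had a median of -0.19. That difference could not change, because these scalings multiply every SPF net value by the same factor. The median of the 7 probes was 0.32 without background subtraction. It was 0.53 with local background subtraction (5 probes) and 0.77 with a floor at the blank mean + 4 SD (6 probes, miR-192-3p dropping out). The cause of these shifts was not tested beyond the probes lost. Of the 7 probes, 4 were at least 2-fold higher. This count was 2 without background subtraction, 0 with local background subtraction, 2 at a fold of 3 and 1 among the 3p arms. The remaining alternatives gave 3 or 4. Of all shared probes, 97 were at least 2-fold higher with local background subtraction and 6 without subtraction, and 23 as reported. No probe at least 2-fold higher changed sign under any alternative that gave it a value. miR-194-1-3p, at 0.36, was below 0 with local background subtraction. No paired analysis was possible because each group has 1 array. Intensities near the blank level limit the 3p arms, of which only miR-194-2-3p was above the No Probe level on both arrays.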
